A study of Danio rerio with 12 samples.

Results

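Among the genes named in the authors' tables of triclosan-exposed zebrafish larvae are gdf5, smad6b and smurf1, of bone morphogenetic protein (BMP) signalling, and nkx3.2 and dlx6a, of the patterning of the jaw skeleton. These 5, which are not all listed genes of such functions, were taken by name from the column of assigned genes, out of 149 gene names, and each was assigned 1 fragment, which gives 5 of 153 distinct fragments and 5 of 171 entries in 3 tables. The names were chosen from tables that hold only fragments the authors had listed. All entries had a difference of at least 15.0 points and an unadjusted p of 0.0530 or less in the authors' F test. The differences and p values below therefore reflect that listing and are not independent evidence.

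The larvae were of the AB strain and 7 days old, and the groups were 50 µg/L triclosan, 100 µg/L triclosan and unexposed controls. Triclosan is an antibacterial agent of consumer products. There were 6 pools per condition, and each group had 4 libraries, each made from 24 pooled whole larvae. How the pools for the libraries were chosen was not examined here. Methylation was measured by reduced representation bisulfite sequencing of CpG-rich fragments cut by the enzyme MspI. The deposited tables give 1 methylation level per group, the share of methylated cytosines in percent here, so values per library and read depth were not analysed here. The column headers do not say whether a level is a mean over libraries or a share of pooled reads. In pools of whole larvae, a change in methylation within cells and a change in the mix of cell types cannot be told apart.

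BMP and growth differentiation factor ligands bind receptor kinases at the cell surface, which activate receptor SMAD proteins that enter the nucleus. Inhibitory SMADs and ubiquitin ligases such as Smurf proteins dampen the signal inside the cell. In the pharyngeal arches of the fish embryo, BMP and endothelin signals pattern the lower jaw, Dlx factors carry the identity of its lower part, and nkx3.2 marks the forming jaw joint.

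At 50 µg/L, the fragments of the ligand gene gdf5 and of the ubiquitin ligase gene smurf1 were less methylated than in controls, by 19.7 and 15.5 percentage points in the authors' deposited table. Between both concentrations, fragments of smad6b and nkx3.2 were 15.4 and 15.0 points more methylated at 100 µg/L than at 50 µg/L, and the dlx6a fragment was 22.3 points less methylated, again per the authors' deposited table. None of the 5 was in the list for 100 µg/L against control, which has 17 entries, and 0 of the 5 were in more than 1 list, while 18 of the 153 distinct fragments were. Levels at 100 µg/L for gdf5 and smurf1, and control levels for smad6b, nkx3.2 and dlx6a, were therefore not analysed here. Absence from a list does not show that 2 groups had the same level.

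**Figure D1:**
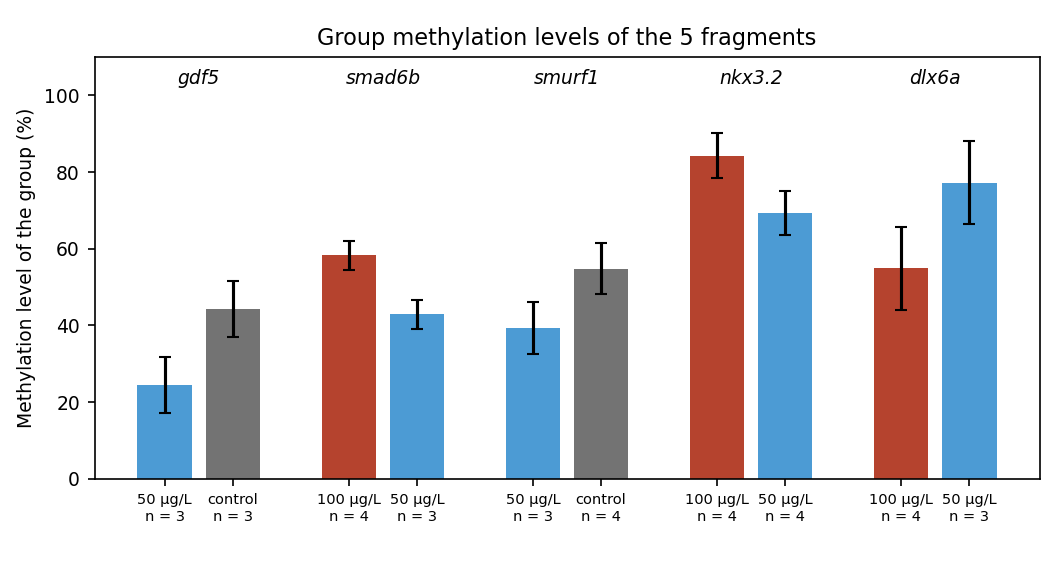
Methylation level in percent of the 5 fragments in the 2 groups of the table that lists each one. Bars are group levels, error bars are the standard deviation between libraries implied by the F statistic, and n is the number of libraries used. Levels span 24.5% for gdf5 at 50 µg/L to 84.3% for nkx3.2 at 100 µg/L.

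gdf5 encodes a secreted ligand of the BMP family that acts in joint formation and cartilage growth. Its fragment lies on chromosome 6 at 52595827 to 52595885 of build Zv9, is 59 bp long and holds 3 CpG sites. The authors' deposited table gives a level of 24.5% at 50 µg/L and 44.2% in controls, with 3 libraries used in each group. The difference had an implied standard error (SE) of 5.96 points and a 95% interval of −36.2 to −3.12 points. Each SE here was back-calculated as the absolute difference over √F from the deposited F, with t-based intervals, which is right only if F was computed on the printed levels. The authors' unadjusted p value for gdf5 was 0.0299 in their deposited table, which places it 46th by p and 12th by size among the 55 entries of that list. The implied standard deviation (SD) between libraries was 7.30 points, above the median of 6.18 over those 55. The fragment is annotated as intronic, 5.85 kb from the lower-coordinate end of a gene of 24.5 kb, and its assigned CpG island starts 52.2 kb beyond the other end of the gene.

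smad6b encodes an inhibitory SMAD, which blocks BMP signalling below the receptor. Its fragment, at 19462959 to 19463102 on chromosome 18 (144 bp, 4 CpG sites), is intronic and lies 34.0 kb inside one end and 16.7 kb inside the other end of a gene of 50.8 kb. In the authors' deposited table its level was 58.2% at 100 µg/L, from 4 libraries, against 42.9% at 50 µg/L, from 3. The implied SE was 2.91 points and the 95% interval 7.86 to 22.8 points. This fragment had the smallest implied spread of the 5, an SD of 3.82 points, the 12th lowest of the 99 entries in that list. Its size was near the lower end, 89th of 99, while its p value of 0.00328 in the authors' deposited table ranked 21st.

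The table for 100 against 50 µg/L carries a threshold that grows with the rank of p, and smad6b lay under it (threshold 0.00571 in the authors' deposited table). It was the 1 of 3 fragments of these genes in that list to do so, beside 33 of all 99 entries (33.3%), so the share among these genes equals the share in the whole list. The threshold equals 0.05 times rank over 184 tests, or a proportionally larger rate over more tests, and the table does not say which. With 184 tests, the Benjamini-Hochberg adjusted form of the authors' F test p was 0.0283 for smad6b, 0.0538 for nkx3.2 and 0.0843 for dlx6a. The 184 was inferred from the threshold, and the number of fragments assayed is not known. These adjusted values therefore need not hold over all assayed fragments.

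smurf1 encodes a ubiquitin ligase that targets receptor SMADs for breakdown. The fragment lies at 40726896 to 40726964 on chromosome 3 and is the densest in CpG of the 5, with 7 sites in 69 bp, or 10.1 per 100 bp, against a median of 5.33 over all 153 listed fragments. The authors' deposited table gives 39.3% at 50 µg/L, from 3 libraries, and 54.8% in controls, from 4. The implied SE was 5.10 points, the 95% interval −28.6 to −2.38 points, and the SD between libraries 6.68 points. By p (0.0288 in the authors' deposited table) it ranked 42nd and by size 44th of 55, so it stood in the weaker part of the list on both measures. The site is intronic and near the middle of a gene of 78.3 kb, 41.9 kb from one end and 36.3 kb from the other, and the assigned CpG island begins 2.36 kb beyond the end with the higher coordinate.

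Both gdf5 and smurf1 were lower at 50 µg/L, as were 32 of the 55 entries of that list (58.2%), so their shared direction is also the more frequent one there. Of the 20 intronic entries in the same list, 12 were lower and 8 higher.

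nkx3.2 encodes a homeodomain factor needed for the jaw joint in zebrafish. Its fragment (chromosome 14, 67645 to 67775, 131 bp, 6 CpG sites) does not lie in the gene: it is 27.6 kb away on the higher-coordinate side, and the gene as deposited is 1.55 kb long. In the authors' deposited table the level was 84.3% at 100 µg/L and 69.3% at 50 µg/L, with all 4 libraries used in both groups, the only one of the 5 for which this was so. The implied SE was 4.11 points, the 95% interval 4.93 to 25.1 points and the SD between libraries 5.82 points. The difference of 15.0 points is the smallest size found among all 171 entries, so this fragment is just inside the size limit of the lists, and fragments below it were not analysed here. Its p of 0.0108 in the authors' deposited table was 1.10 times the threshold at its rank. The CpG island assigned to it overlaps the nkx3.2 gene itself, 27.2 kb from the fragment, so the listed change was not measured at that island.

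dlx6a encodes a distal-less homeodomain factor of the lower jaw arch. The fragment is at 42355714 to 42355848 on chromosome 19 (135 bp, 5 CpG sites), 35.6 kb outside the lower-coordinate end of the gene as deposited. That deposited range is 47.5 kb long. The level was 54.9% at 100 µg/L, from 4 libraries, and 77.2% at 50 µg/L, from 3, in the authors' deposited table. The difference of 22.3 points was the largest of the 5, and the least precise: its implied SE was 8.24 points, its 95% interval −43.5 to −1.10 points and its SD between libraries 10.8 points, 96th of 99 when ordered from low to high. Its p of 0.0426 in the authors' deposited table was 93rd of 99 and 1.69 times the threshold at its rank.

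In that list 64 of 99 entries were higher at 100 µg/L (64.6%), and 2 of the 3 fragments of these genes were. Intronic entries there were higher in 19 of 25 cases, like smad6b, and entries outside genes in 43 of 63, like nkx3.2, with dlx6a among the 20 lower ones.

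**Figure D2:**
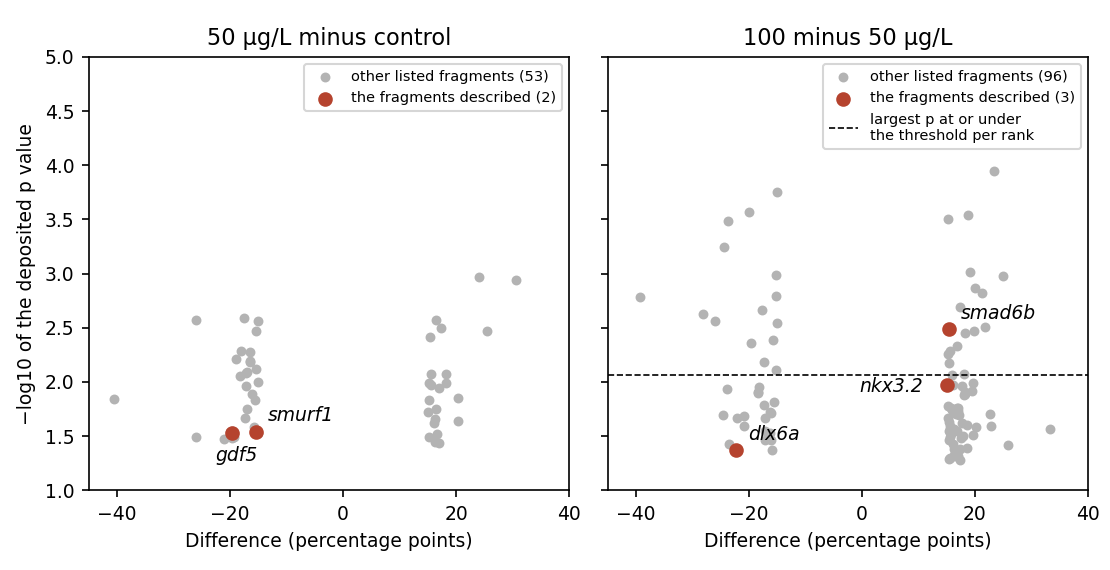
Each listed fragment by its difference in percentage points (x axis) and −log10 of the deposited p value (y axis), for 50 µg/L minus control and for 100 minus 50 µg/L. Red points are the 5 fragments and grey points the other entries. smad6b alone of the red points in the right panel lies above the dashed line, which marks the largest p that meets the rank-dependent threshold, and gdf5, smurf1 and dlx6a lie among the larger p values.

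Every one of the 5 fragments has a level at 50 µg/L. From low to high, the authors' deposited tables put gdf5 at 24.5%, smurf1 at 39.3%, smad6b at 42.9%, nkx3.2 at 69.3% and dlx6a at 77.2%. smurf1 and smad6b were 3.57 points apart and nkx3.2 and dlx6a 7.89 points apart, both less than the larger of their SDs between libraries. The steps from gdf5 to smurf1 (14.8 points) and from smad6b to nkx3.2 (26.4 points) were 2.03 and 4.54 times the larger SD. Each SD was pooled over both groups of the list that holds the fragment, so it is not the spread at 50 µg/L alone. It is a spread of single libraries and not the error of a step between group levels. The levels are of different sites and say nothing of expression.

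In place, 3 of the 5 fragments were intronic, 2 outside genes and 0 on exons, while of the 153 distinct fragments 45 were intronic, 94 outside and 14 on exons. The 2 fragments outside genes lay 27.6 and 35.6 kb from their gene, nearer than the median of 51.8 kb over all 94. All 5 lay at least 27.2 kb from their assigned CpG island, and the median of the 5 was 70.8 kb, the same as over all 153 fragments. The gdf5 fragment lies at that distance and is counted in both sets, so the equal medians say little of the other fragments. Their CpG density was 2.78 per 100 bp at smad6b, 3.70 at dlx6a, 4.58 at nkx3.2 and 5.08 at gdf5 besides smurf1, and the quartiles over all listed fragments were 4.00 and 7.14.

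**Figure D3:**
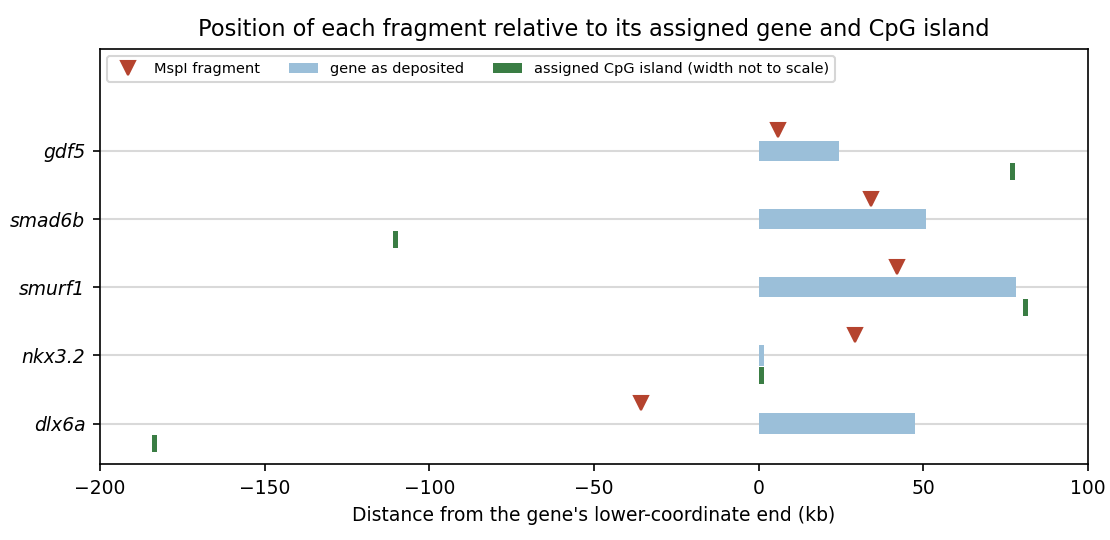
Position of each fragment (red triangles) relative to its assigned gene (blue bars, the gene range as deposited) and CpG island (green marks), as distance in kb from the lower-coordinate end of the gene. The gdf5, smad6b and smurf1 fragments lie inside the gene, nkx3.2 and dlx6a outside it, 27.6 and 35.6 kb away.

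An assigned name is the table's choice, and other genes lie beside the named ones. In the RefSeq gene order of assembly GRCz12tu, which is not the build of the files, smad6b is followed by smad3b, a receptor SMAD gene of the activin and TGF-beta branch. dlx6a stands beside dlx5a, its partner in the same gene pair, on one side and sem1, a proteasome subunit gene, on the other. gdf5 lies between uqcc1, an assembly factor of respiratory complex III, and sdc4, a syndecan gene, and smurf1 between uts2r5 and the actin regulator gene arpc1a. nkx3.2 was not matched by symbol in that table. No other listed fragment lay close to any of the 5: the nearest on the same chromosome were 0.729 Mb away for dlx6a (assigned to GATAD2B), 0.945 Mb for gdf5 (FAM65C), 1.10 Mb for smurf1 (BX640398.1), 1.34 Mb for nkx3.2 (TRPC7 (3 of 4)) and 1.79 Mb for smad6b (necab2).

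Other genes of the pathway were read from lists of textbook members. Of 87 symbols on 5 BMP lists, 3 were assigned a fragment: gdf5 of 23 ligands, smad6b of 13 SMADs and smurf1 of 18 ligases and targets, with 0 of 12 receptors and 0 of 21 extracellular inhibitors. Of these entries 1 was higher and 2 were lower at the higher of both concentrations compared. Over all entries, 58.2% were lower in the list of gdf5 and smurf1, and 64.6% were higher in that of smad6b. All 3 had been taken by name beforehand, so the count repeats that choice. Which genes had an assayed fragment is not known from these tables, so the zeros cannot be read as absence of change, and no enrichment was tested.

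Of 69 symbols on the lists of jaw patterning factors and of cartilage and bone genes, 5 were assigned a fragment, in 6 entries, of which 5 were lower and 1, nkx3.2, was higher at the higher concentration. Besides nkx3.2 and dlx6a, these were pitx1, mgp and hapln3. Over all lists, 76 of 171 entries were lower (44.4%), but the share differed by list. In the list of mgp, 58.2% of entries were lower. In that of nkx3.2, dlx6a, pitx1 and 1 hapln3 entry, 64.6% were higher. In that of the other hapln3 entry, 1 of 1 exonic, 4 of 6 intronic and 4 of 10 outside entries were lower. The exonic hapln3 fragment makes up 2 of the 6, and the small number of entries allows no comparison beyond these counts. The symbol lists need not hold every jaw, cartilage or bone gene that was assigned a fragment, so the counts depend on their choice. nkx3.2 and dlx6a had been taken by name beforehand, and the lists were fixed with earlier results of these data known. The counts therefore partly repeat that choice. pitx1 encodes a homeodomain factor of the jaw and hind limb. The authors' deposited table gives its fragment, 26.9 kb outside the gene on chromosome 21 (44117220 to 44117287), a level of 34.6% at 100 µg/L and 55.4% at 50 µg/L, with an implied SE of 6.63 points. Its p of 0.0258 in the authors' deposited table was above the threshold at its rank (0.0188), as for dlx6a and nkx3.2.

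mgp encodes matrix Gla protein, an inhibitor of calcification in cartilage and vessels. In the authors' deposited table its fragment, 16.1 kb from the gene, was 34.8% methylated at 50 µg/L and 54.4% in controls (implied SE 7.09 points, 4 libraries each). By p (0.0329, authors' F test) the mgp fragment ranked 52nd in the list for 50 µg/L against control. hapln3 encodes a link protein that joins hyaluronan and proteoglycans. Its exonic fragment is the one among these genes with all 3 levels: the authors' deposited tables give 77.3% in controls, 80.9% at 50 µg/L and 56.5% at 100 µg/L. The implied SE was 5.70 points for 100 µg/L against control and 3.14 points for 100 against 50 µg/L, and both entries share the libraries at 100 µg/L. For 100 against 50 µg/L the hapln3 p of 0.000573 (authors' F test) was under the threshold at its rank (0.00190). As for smad6b, this need not hold over all assayed fragments.

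**Figure D4:**
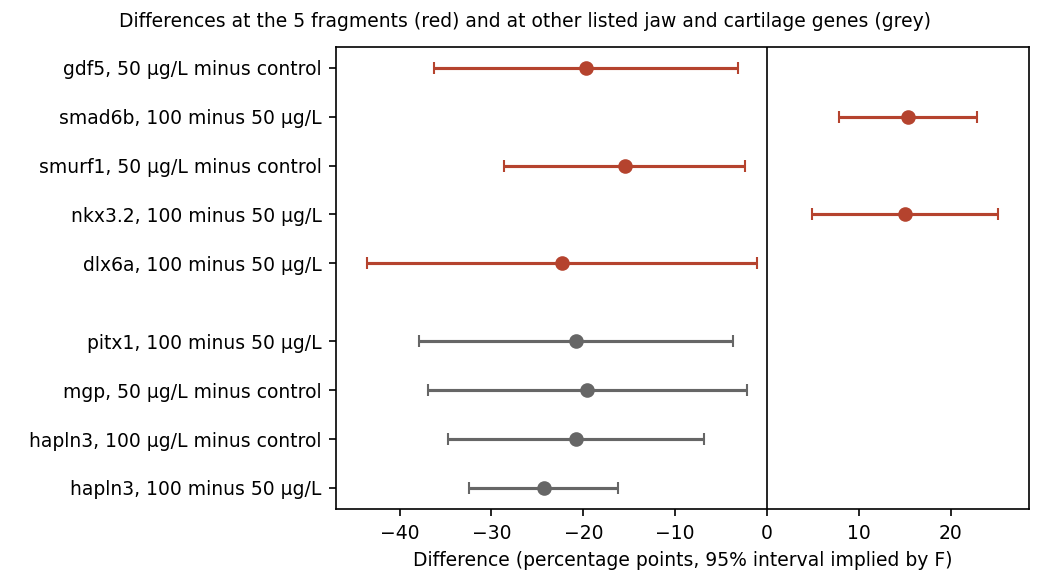
Difference in methylation level in percentage points, with the 95% interval implied by the F statistic. Red points are the 5 fragments. Grey points are the other genes found from the lists of jaw patterning factors and of cartilage and bone genes. The red smad6b and nkx3.2 points lie above 0 and all others below it, and the dlx6a interval (−43.5 to −1.10) is the widest.

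The fragments whose pair of group levels was closest to those of each gene, within the same list, carried names outside these lists with 2 exceptions, mgp and hapln3. Closeness was the sum of both absolute differences in level. For smurf1 they were hspb1 (4.10 points in all) and the cartilage gene mgp (5.01), and for gdf5 ch1073-291c23.1 (3.76) and fbln1 (4.31), a matrix glycoprotein gene. For smad6b they were hyi (2.59) and zfhx4 (4.09), and for nkx3.2 si:ch211-138k19.2 (1.14) and CABZ01112249.1 (1.37). For dlx6a they were rictora (3.41) and hapln3 (5.29), which is on the list of cartilage and bone genes. The smad6b difference had a smaller error than its neighbours in level, an implied SE of 2.91 points against 5.73 for hyi and 5.91 for zfhx4, while the dlx6a SE of 8.24 points exceeded the 3.97 of rictora and the 3.14 of hapln3.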

How the data were processed

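The authors deposited 3 tables of their own comparisons, 1 per pair of groups. Each row of these deposited tables holds a listed fragment, both group methylation levels as a fraction and an F test with its p-value (unadjusted). It also holds how many libraries entered, and the gene and CpG island assigned. The headers do not name the group of each level. Groups were taken from the order in the comparison's name, and fragments shared between comparisons had the same levels. The threshold per rank has no header name and was recognised from its values. MspI fragments of 40 to 220 bp were sequenced, per the labels' protocols, and the submitters' processing notes name build Zv9. Aligner, caller and coverage minimum were not given in the sources used here. Depth is unknown. Separate clutches for the pools are not stated, so p-values measure only the spread between these pools.

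Values were taken by column position, since in the table for 100 against 50 µg/L the header is offset by 1 column. The listed difference equalled the gap between the group levels within 0.01 points in 171 of 171 entries, and p recomputed from F differed from the deposited p by at most 0.126%. Levels are printed as percent. SEs, 95% intervals and SDs were derived from F and assume equal spread in both groups. The check on simulated data used unselected normal values of equal spread. It therefore does not show that the intervals hold for the listed fragments, which all had a difference of at least 15.0 points. Planned tests per library could not be run on group levels, so the authors' values are described. The genes named are all 5 by rule, every symbol of 7 fixed lists with a listed fragment, and the 2 nearest fragments by level. Of 156 list symbols, 154 were found in current symbol tables. Members and lists were chosen with earlier results of these data known. Python 3.11.15, pandas 2.3.3, NumPy 2.4.6 and SciPy 1.17.1 were used. Alternatives concerned the interval, the p threshold and filters on difference, CpG number, libraries and distance.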

Additional observations from a re-analysis of the deposited data

How the results depend on the processing

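No alternative turned a direction, since each changes the call and not the group levels. With p held against the threshold per rank, or adjusted by Benjamini-Hochberg over 184 tests, the F tests for nkx3.2 (15.0 points) and dlx6a (−22.3 points) no longer passed, and smad6b did. The 184 was inferred from that threshold, so the adjustment is not a separate check. How many fragments were assayed is not known, so the smad6b pass need not hold over all of them. Adjusted over the 55 listed entries alone, gdf5 and smurf1 had an adjusted p of 0.0347 each (Benjamini-Hochberg, authors' F test). Only listed fragments enter it, all with an unadjusted p of 0.0367 or less, so passing 0.05 there was fixed beforehand and is no support. Normal intervals left out 0 for the same 5 fragments as the t intervals. This too was fixed beforehand and is no support. Each of the 5 had an unadjusted p under 0.05 in the authors' F test, and a normal interval is always narrower than the t interval. Of the 5 entries, 1 was left at a difference of at least 20 points (dlx6a; 20.5% of all 171 entries), 1 with all 4 libraries in both groups (nkx3.2; 14.6%), 1 at p of 0.01 or less (smad6b; 36.8%) and 3 inside the gene or within 10 kb (gdf5, smad6b, smurf1; 49.1%). At least 4 CpG sites left 4 of 5, without gdf5 (77.8% of all entries). Matching list names without case or copy suffix, an alternative chosen after seeing the data, left the 9 list entries at 9. Leaving out libraries was not run, because the tables hold no value per library. No paired analysis was possible because the tables hold group levels only and carry no replicate numbers. The library titles do carry such numbers, some of them shared between groups, but do not say that equal numbers are matched. Unknown read depth limits all levels.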
